A study of Mus musculus with 46 samples.

Results

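The 10 genes described here encode cell adhesion receptors, the matrix proteins those receptors bind, and proteins of the cell surface and its cytoskeleton. They were Itga8, Itga5 and Itgav (integrin alpha chains), Itgb1 and Itgb5 (integrin beta chains), Npnt (nephronectin), Fn1 (fibronectin), Tnc (tenascin C), Cdh11 (a cadherin) and Msn (moesin). They were taken by symbol from the deposited table, 10 of 29871 genes, and were chosen because earlier results on these cells had shown high or uneven levels, so the levels below are a description and carry no test. The data came from 46 fluorescent cells of the cochlea of Dio2creERt2:Ai6 mice on the C57BL/6 strain at postnatal day 10. All 46 had that genotype, with the Cre allele heterozygous and under control of Dio2, the gene of the enzyme that activates thyroid hormone. The Ai6 allele makes a green fluorescent protein in any cell in which Cre has acted and in its descendants. Fluorescence thus records that Cre had acted in a cell or its forebear, and does not show present use of Dio2. The labels name no animal, no tamoxifen dose and no wild-type or Cre-negative control, so the cells form 1 sample with no replicate check.

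Cells were described in 4 classes set by the reads of 3 genes. There were 12 Ibsp-high cells (bone sialoprotein of osteoblasts, at or above 1000 CPM, reads per 1000000 reads), 9 Otos-high cells (otospiralin of cochlear fibrocytes, at or above 1000 CPM), 4 C1qb-high cells (complement C1q of macrophages, at or above 500 CPM) and 21 remaining cells. These are 26.1% (exact 95% interval 14.3% to 41.1%), 19.6% (9.36% to 33.9%), 8.70% (2.42% to 20.8%) and 45.7% (30.9% to 61.0%) of the picked cells, and the intervals cover counting error only. No cell passed more than 1 of the limits. Just below and above the limits lay 107 and 7618 CPM for Ibsp, 112 and 1213 CPM for Otos, and 148 and 3048 CPM for C1qb. The classes are ranges and not cell types. At least 3 of 9 osteoblast markers were present in all 12 Ibsp-high cells and in 5 of the 21 remaining cells (cells 20, 21, 22, 38 and 42). At least 3 of 8 cochlear fibrocyte markers were present in 11 of 12 Ibsp-high, 9 of 9 Otos-high and 18 of 21 remaining cells. Summed macrophage markers lay between 14850 and 26377 CPM in the C1qb-high cells and reached at most 249.5 CPM elsewhere. Of 4 otic epithelium markers, Epcam and Krt8 were at 0 in every cell, while Cdh1 was present in 12 cells (6 Otos-high and 6 remaining) and Krt18 in 3. Of 4 hair cell markers, Pou4f3 and Otof were at 0 in every cell, while Myo6 was present in 27 cells (7 Ibsp-high, 6 Otos-high and 14 remaining) and Myo7a in 2 (both C1qb-high). No cell held 3 markers of either list. Reads in listed genes ran from 2522853 to 10350249 per cell. Cells 1 to 12 are the Ibsp-high cells and cells 43 to 46 the C1qb-high cells, so class and place in the numbering cannot be told apart.

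An integrin is a receptor of 1 alpha and 1 beta chain that ties the extracellular matrix to the actin cytoskeleton, and the alpha chain largely decides which ligand is bound. The alpha-8 chain pairs with beta-1 and binds nephronectin, fibronectin and tenascin C. The alpha-5 chain with beta-1 is the classical fibronectin receptor, and the alpha-v chain pairs with several beta chains, beta-1 and beta-5 among them. Many of these ligands are bound through the tripeptide Arg-Gly-Asp (RGD). Cadherin-11 joins mesenchymal cells, osteoblasts included, to each other, and moesin links membrane proteins to cortical actin.

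The coding sequences for the RGD tripeptide are shown first because the alpha-8, alpha-5 and alpha-v integrins are known to bind fibronectin, and alpha-8 nephronectin, through it. They were found in the GRCm38 genome (GENCODE M21) by reading the longest coding transcript of each gene in frame for CGN, AGA or AGG, then GGN, then GAC or GAT, on the coding strand alone. Fn1 held 2 matches in its 2477 codons and Npnt held 1 in its 609 codons. Tnc held none in 2110 codons, which says only that these letters are not in that transcript. Of 21817 coding genes read in the same way, 1570 (7.20%) held at least 1 match. Each sequence is 30 coding bases on the minus strand, 5′ to 3′, with the 3 codons in capitals and the position of the Arg codon counted from the start codon.
Fn1, codon 1614, exon 30, chr1:71606737-71606766: gctgtcactggcCGTGGGGACagtccagca
Fn1, codon 2181, exon 40, chr1:71597434-71597463: ggtcatgttcccAGGGGAGACgtagactac
Npnt, codon 430, exons 10 and 11, chr3:132891487-132904685: cctcagaaacccAGAGGAGATgtgttcatt
The Fn1 pair use different codons for Arg, and the second Fn1 match shares its Gly codon with Npnt. An intron lies within the 30 coding bases shown for Npnt, so they span 13199 bases of chromosome 3. Whether it falls inside the 3 codons or beside them was not determined.

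Most members were either high or near 0 in a cell. A gene was called present at 10 CPM or more and at 2% or more of its own mean over the 46 cells. Itga8 (gene 241226, chr2:12106632-12301922) was present in 20 cells (43.5%, exact 95% interval 28.9% to 58.9%), and no cell lay between 1.62 and 65.1 CPM. In the other 26 cells it had at most 9 reads, against at least 319 reads in each cell that held it. Npnt (gene 114249, chr3:132881745-132950291) was present in 26 cells (56.5%, 41.1% to 71.1%), with no cell between 5.42 and 18.6 CPM. Fn1 (gene 14268, chr1:71585520-71653200) was present in 15 cells (32.6%, 19.5% to 48.0%), with no cell between 9.29 and 101 CPM. Tnc (gene 21923, chr4:63959785-64047015) was present in 3 cells (6.52%, 1.37% to 17.9%), and had at most 4 reads in each of the other 43. These 4 genes were thus split into cells with many reads (at least 86 for Npnt, 434 for Fn1 and 610 for Tnc) and cells with few (at most 30 for Npnt and 46 for Fn1). The split was least sharp for Npnt, which had at least 1 CPM in 38 cells against the 26 in which it was present.

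The other members differed in how widely they were shared and how sharply they were split. The widest step between neighbouring cells in log2(CPM + 1) was 3.55 for Itgb5, 2.98 for Cdh11, 2.82 for Msn and 2.46 for Itga5. It was 1.82 for Itgav and 1.42 for Itgb1, beside 1.61 for Npnt. Itgb5 (gene 16419, chr16:33829665-33949338) was present in 37 cells, Cdh11 (gene 12552, chr8:102632095-102785642) in 31 and Msn (gene 17698, chrX:96096042-96168552) in 25. Itgav (gene 16410, chr2:83724397-83806916) was present in 14 cells and Itga5 (gene 16402, chr15:103344286-103366763) in 12, with 19 and 25 cells at 0 reads. Itgb1 (gene 16412, chr8:128685654-128733200), the common partner of the alpha chains, behaved differently from the others. It was present in 15 cells, but 38 cells had at least 1 CPM, its median was 5.96 CPM, and 1 cell passed 100 CPM. Its presence count therefore changed more with the limit than that of any other member.

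Levels of different genes were compared per kilobase of exon, as the median over the cells in which a gene was present. Npnt reached 96.8 CPM per kb, Itgb5 96.2, Itga8 82.5, Cdh11 61.4, Msn 55.8, Tnc 49.9 and Fn1 29.9. The alpha-5 chain lay at 12.03 CPM per kb, and Itgb1 and Itgav both at 5.69. Thus the beta-1 transcript lay far below the alpha-8 transcript in the cells that held each.

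**Figure D1:**
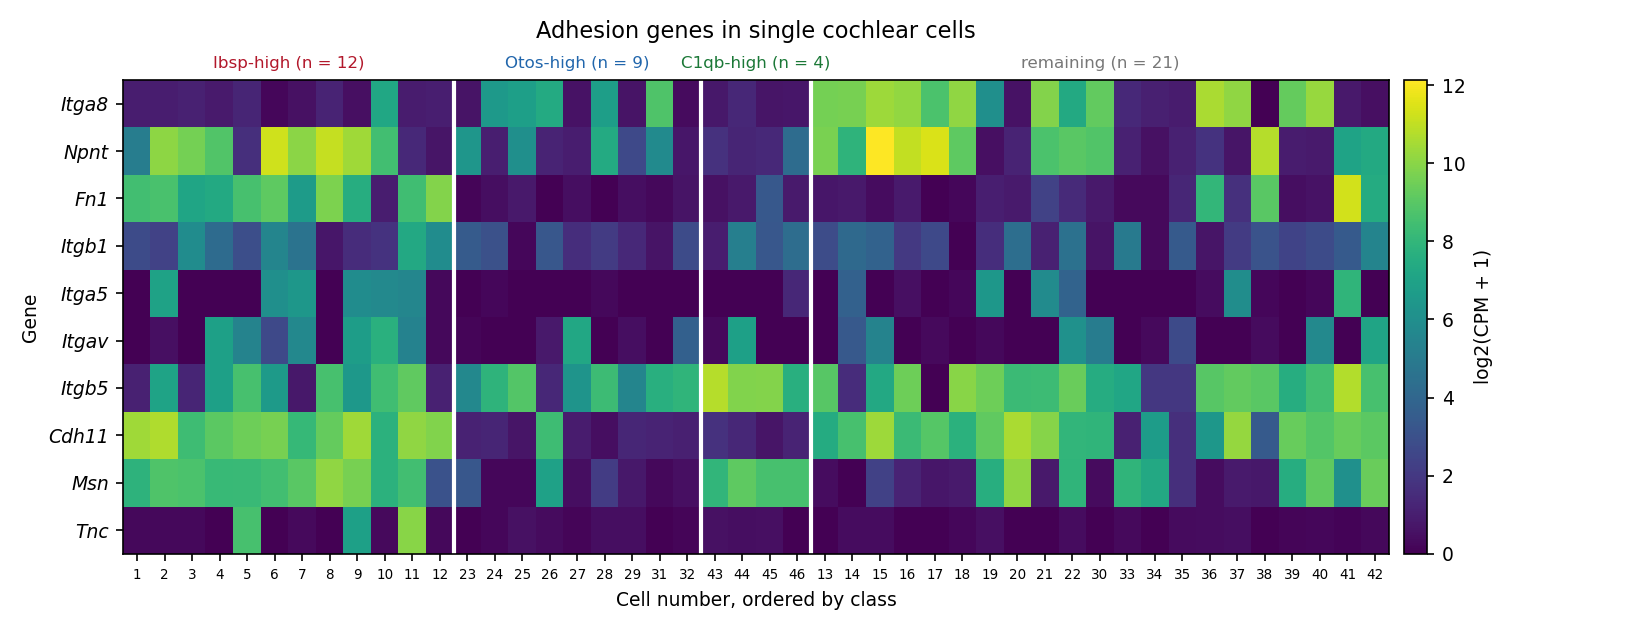
Level of the 10 genes as log2(CPM + 1) (colour) in each of the 46 cells, which are ordered by class and then by number. Fn1, Cdh11 and Msn are high across the Ibsp-high cells, Itga8 is high in 14 of the 21 remaining cells, and Tnc is high in cells 5, 9 and 11.

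Among the receptors, Itga8 was a gene of the remaining and Otos-high cells. In the 21 remaining cells it ranged from 0 to 1552 CPM with a median of 602 CPM and was present in 14. The 9 Otos-high cells ranged from 0.271 to 446 CPM with a median of 93.01 CPM, and 5 of them held it (cells 24, 25, 26, 28 and 31, at 93.01, 116, 168, 111 and 446 CPM). Among the 12 Ibsp-high cells it was present in cell 10, at 151 CPM, while the other 11 lay between 0.171 and 1.39 CPM. The 4 C1qb-high cells had 0.698, 1.55, 0.606 and 0.648 CPM. High cells occurred in 3 of the 4 classes, and the ranges of the Ibsp-high, Otos-high and remaining cells overlapped. The 7 remaining cells without Itga8 were cells 20, 33, 34, 35, 38, 41 and 42.

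Itga8 reads from a stretch shared with an antisense gene cannot be separated from the reads of that gene. The Itga8 exons add up to 7.37 kb, most of it outside that stretch. E030013I19Rik is annotated as antisense, and its longest match to the Itga8 transcript was 346 bases at 100% identity. It was present in 17 cells, all of them among the 20 with Itga8, and in all 14 remaining cells with Itga8. It reached 2226 CPM in cell 15, and its log2(CPM + 1) followed that of Itga8 with a Pearson r of 0.89 over the 46 cells of 1 sample. The sources used here do not say whether reads were counted by strand.

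Itga5 and Itgav, the other alpha chains among the members, lay in fewer cells and at lower levels. Itga5 was present in 6 Ibsp-high cells (2, 6, 7, 9, 10 and 11, at 126, 64.0, 83.8, 58.7, 51.8 and 46.2 CPM) and 6 remaining cells. It reached 248 CPM in cell 41, and no Otos-high or C1qb-high cell passed 1.51 CPM. Itgav was present in 6 Ibsp-high, 2 Otos-high, 1 C1qb-high and 5 remaining cells, with its highest value of 207 CPM in cell 10. Both genes were at or near 0 in most cells of every class except the Ibsp-high, where 6 of 12 held each, and the classes overlapped.

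Itgb5 was the most widely present member. The C1qb-high cells had 1780, 919, 941 and 198 CPM, the Ibsp-high cells a median of 107 CPM (range 0.697 to 582), the Otos-high cells 202 CPM (1.57 to 465) and the remaining cells 348 CPM (0 to 1708). Presence was 4 of 4, 8 of 12, 8 of 9 and 17 of 21 cells. The order of the medians is C1qb-high, remaining, Otos-high and Ibsp-high, and each neighbouring pair overlapped. Itgb5 was also present in 13 of the 14 cells with Itgav, its partner chain, and cell 7 was the exception, with 49.5 CPM of Itgav and 0.697 CPM of Itgb5. Since 37 of all 46 cells held Itgb5, that share is read as a description. A stretch of 343 bases of the Itgb5 transcript matches the pseudogene Gm38317 at 99.7% identity. No CPM are given under that symbol, and the source of reads in this stretch was not determined.

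Itgb1 medians were 12.4 CPM in the Ibsp-high, 3.30 in the Otos-high, 14.1 in the C1qb-high and 5.81 in the remaining cells. Its highest values were 158 CPM in cell 11 and 58.6 and 58.5 CPM in cells 3 and 12, all Ibsp-high. Presence was 6 of 12, 1 of 9, 2 of 4 and 6 of 21 cells, and all classes overlapped.

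Of the ligands, Fn1 lay mainly in the Ibsp-high cells. It was present in 11 of these 12 cells, with a median of 347 CPM and a highest value of 949 CPM in cell 12. The exception was cell 10, at 0.978 CPM, which was also the Ibsp-high cell with Itga8. In the 9 Otos-high cells Fn1 ranged from 0 to 0.771 CPM, so every Ibsp-high cell lay above every Otos-high cell, though cell 10 by little. The C1qb-high cells had 0.465, 0.775, 9.29 and 0.864 CPM. Among the remaining cells it was present in cells 36, 38, 41 and 42, at 263, 519, 2519 and 175 CPM, and the median of that class was 0.809 CPM. Cells 38 and 42 of these 4 also held at least 3 osteoblast markers.

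Npnt was spread over more classes. The Ibsp-high cells ranged from 0.599 to 2414 CPM with a median of 613 CPM, and 9 of 12 held it. In the remaining cells it ranged from 0.408 to 4484 CPM with a median of 163 CPM, and 12 of 21 held it. The Otos-high cells with Npnt were cells 23, 25, 28 and 31, at 81.4, 65.0, 167 and 55.3 CPM, and the class median was 5.42 CPM. Of the C1qb-high cells, cell 46 passed the limit with 18.6 CPM and the others had 2.33, 1.36 and 1.62 CPM. High cells thus occurred among both Ibsp-high and remaining cells, and all classes overlapped. Npnt and Fn1 were present together in 11 cells, 8 of them Ibsp-high.

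Tnc was confined to Ibsp-high cells 5, 9 and 11 at 388, 119 and 1010 CPM, among the 46 cells measured. No other cell passed 0.465 CPM. All 3 cells also held Fn1, Itgav, Itgb5, Cdh11 and Msn, and none held Itga8. Its absence from the 21 remaining cells allows a share of up to 16.1% by the exact interval.

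The nephronectin ligand and its alpha-8 receptor chain were present together in 13 of 46 cells. Npnt without Itga8 was found in 13 cells, Itga8 without Npnt in 7, and neither in 13. Together they are 50.0% of the 26 Npnt cells, beside Itga8 in 43.5% of all 46 cells. They are 65.0% of the 20 Itga8 cells, beside Npnt in 56.5% of all 46. The shares are read as a description. The classes divided these states unevenly. Of the 12 Ibsp-high cells, 8 held Npnt without Itga8, 1 held both (cell 10) and 3 held neither. Of the 9 Otos-high cells, 3 held both (cells 25, 28 and 31), 2 held Itga8 alone, 1 held Npnt alone and 3 held neither. Of the 21 remaining cells, 9 held both, 5 held Itga8 alone, 3 held Npnt alone and 4 held neither.

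In the 9 remaining cells with both, Npnt ran from 235 to 4484 CPM and Itga8 from 163 to 1316 CPM, and cell 15 had the highest value of both. These were cells 13 to 18, 21, 22 and 30, and the 5 with Itga8 alone were cells 19, 36, 37, 39 and 40. At least 3 chondrocyte markers were present in all 9 of the former and in 1 of the latter, and at least 3 cochlear fibrocyte markers in 8 of 9 and 5 of 5. The chondrocyte markers were not particular to cells with both genes. At least 3 were also present in all 4 remaining cells with neither gene and in all 9 Otos-high cells, but in 0 of the 3 remaining cells with Npnt alone. The parts of the numbering and of the marker lists in this pattern were not tested. Over all 46 cells the levels of the ligand and the receptor hardly followed each other (Pearson r 0.16, Spearman rho 0.03 on log2(CPM + 1), cells of 1 sample). Within the remaining cells r was 0.26 over 21 cells.

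**Figure D2:**
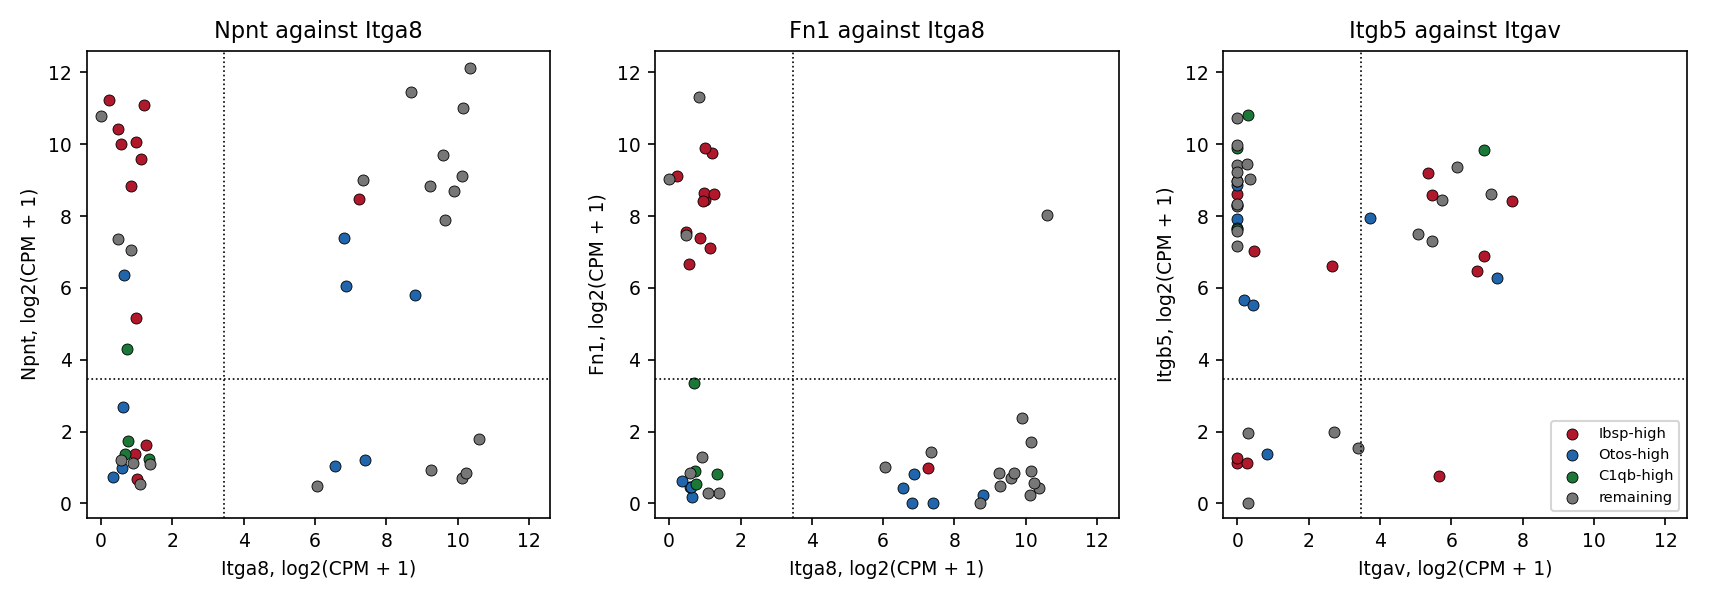
Each point is 1 of the 46 cells, coloured by class, at log2(CPM + 1) of the gene on each axis, and the dotted lines mark 10 CPM. Npnt and Itga8 share 13 cells in the upper right, Fn1 and Itga8 share 1 (cell 36), and 13 of the 14 cells right of the Itgav line lie above the Itgb5 line.

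Fibronectin and alpha-8 were nearly always in different cells. They were present together in cell 36, which is 1 of 15 Fn1 cells and 1 of 20 Itga8 cells. Fn1 without Itga8 was found in 14 cells and Itga8 without Fn1 in 19. Across the 46 cells r was -0.48 and rho -0.34, and within the remaining cells r was -0.41. Within the Ibsp-high cells r was -0.87 but rho was 0.01, and cell 10 was the 1 cell apart from the other 11 in both genes. Tnc and Itga8 were never present together, over 3 and 20 cells.

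Over all 46 cells, Fn1 was present in 15, Itga5 in 12 and Itgav in 14. Fibronectin and alpha-5 were present together in 6 cells, which are 6 of 15 Fn1 cells and 6 of 12 Itga5 cells. Of these, 5 were Ibsp-high (cells 2, 6, 7, 9 and 11), and the other was cell 41, which had the highest value of Fn1 (2519 CPM) and of Itga5 (248 CPM). Fibronectin and alpha-v were likewise present together in 6 cells (4, 5, 7, 9, 11 and 42), 5 of them Ibsp-high. Cells 7, 9 and 11 held Fn1 with both alpha chains. In the Otos-high and C1qb-high cells neither of these ligand and receptor pairs occurred.

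With the beta-1 chain counted as well, few cells held a full ligand and receptor set. Npnt with Itga8 and Itgb1 was present in 3 cells (14, 15 and 22), Fn1 with Itga5 and Itgb1 in 3 (6, 7 and 11), Fn1 with Itgav and Itgb1 in 4 (4, 7, 11 and 42), and Fn1 or Tnc with Itga8 and Itgb1 in 0. These counts rest on the limit for Itgb1. At 1 CPM they became 15, 10 and 9, with 6 for Fn1 and 1 for Tnc with Itga8 and Itgb1, and at 100 CPM all 5 were 0. Itga8 and Itgb1 were present together in 3 cells, Itga5 and Itgb1 in 5 and Itgav and Itgb1 in 7. Presence of transcripts in a cell shows neither a receptor on its surface nor binding, and a ligand can reach a receptor on another cell.

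**Figure D3:**
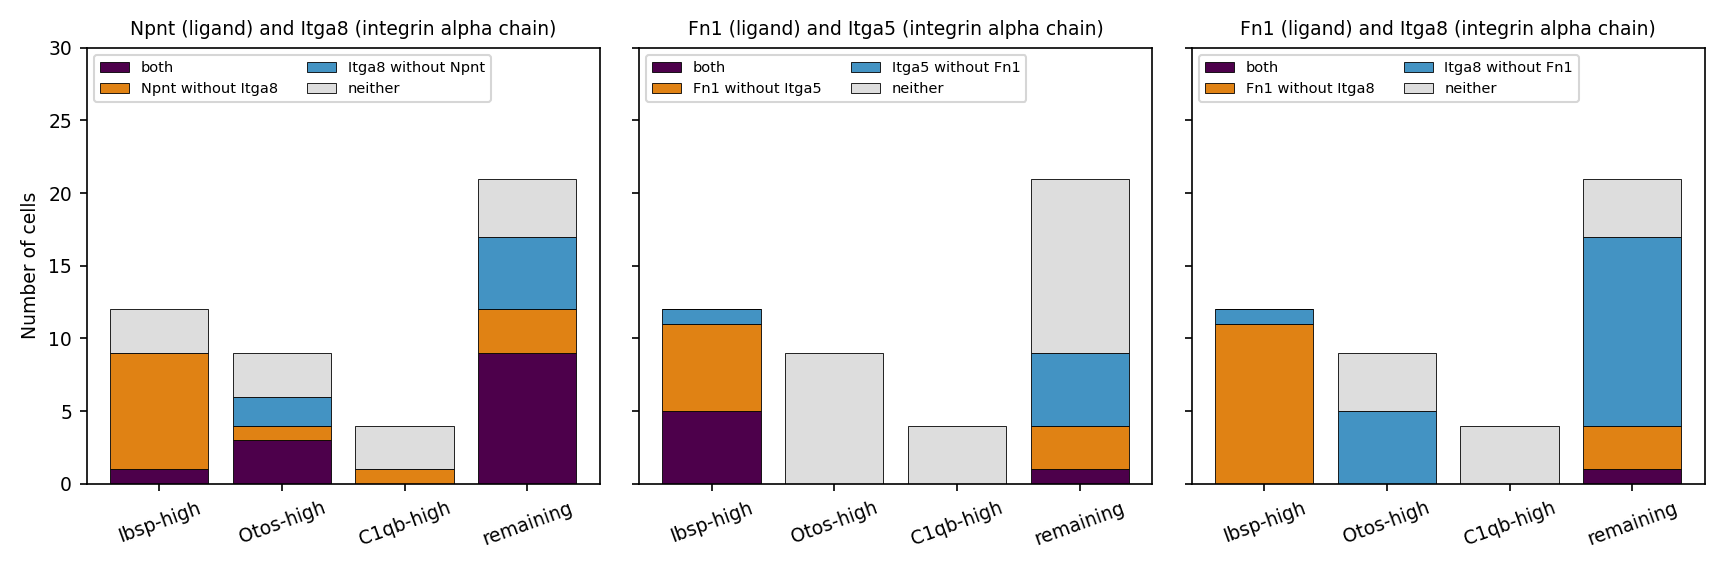
Number of cells of each class (bar height) in which a ligand and an integrin alpha chain were both present, 1 of them, or neither, for Npnt with Itga8, Fn1 with Itga5 and Fn1 with Itga8. Cells with both Npnt and Itga8 lie mainly among the remaining cells (9 of 13) and cells with both Fn1 and Itga5 mainly among the Ibsp-high cells (5 of 6).

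Cdh11, the cadherin of mesenchymal cells, was present in all 12 Ibsp-high cells, from 220 to 1640 CPM with a median of 759 CPM. It was present in 18 of 21 remaining cells (median 391 CPM, range 1.16 to 1522), in 1 of 9 Otos-high cells (cell 26, at 325 CPM) and in none of the 4 C1qb-high cells, which had 2.33, 1.55, 0.606 and 1.30 CPM. Every Ibsp-high cell lay above every C1qb-high cell, and the remaining cells overlapped with both. All 12 cells with Itga5, 14 of the 15 with Fn1 and 16 of the 20 with Itga8 held Cdh11, beside 31 of all 46 cells. Stretches of the Cdh11 transcript match 7 other genes or pseudogenes at 92.9% to 96.3% identity. The most expressed of them, 2610005L07Rik, was present in 38 cells, among them all 31 with Cdh11, so the split of reads between them is uncertain.

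Msn, the moesin gene, was present in 11 of 12 Ibsp-high cells with a median of 355 CPM and in all 4 C1qb-high cells, at 249, 548, 382 and 391 CPM. The Ibsp-high cell without it was cell 12, at 7.39 CPM. Of the 9 Otos-high cells, cell 26 held 124 CPM and the others lay between 0.154 and 8.66 CPM, so every C1qb-high cell lay above every Otos-high cell. Of the 21 remaining cells 9 held it, with a median of 2.06 CPM and a highest value of 1102 CPM in cell 20. Cell 26 was thus the sole Otos-high cell with Cdh11 or Msn, and it held both. Msn and Itga8 were present together in 6 cells and ran against each other over the 46 cells (r -0.51, rho -0.40), and within the remaining cells r was -0.49.

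The number of the 10 genes present in a cell differed between classes. The median was 6.5 in Ibsp-high cells (range 3 to 8), 3 in Otos-high (1 to 3), 3 in C1qb-high (2 to 4) and 4 in remaining cells (0 to 8). Over all genes, the median number at 1 CPM or more per cell was 5242.5, 4892, 4936 and 4968 in the same order. The members were chosen on levels in these cells, so their counts are a description. Cell 35 held none, and was 1 of the 4 cells with fewer than 3500000 reads in all. The others, cells 5, 8 and 36, held 6, 5 and 4, and a part of depth was not tested. Cells 9 and 11 (Ibsp-high) and 22 (remaining) held 8 each.

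Differences between classes were then described by 1 size rule across all genes. A gene was called when its class means of log2(CPM + 1) differed by at least 2 and it had at least 1 CPM in 75% of the cells of whichever class was higher. Of all genes, 11447 had at least 1 CPM in at least 5 cells and entered, among them 9 of the 10 members, and Tnc did not. Means are given with the SD over cells, and the cells are not replicates. The members were chosen on these levels, so their counts support nothing beyond the description.

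Between Ibsp-high and remaining cells, Fn1 was higher by 5.33 (means 7.72 ± 2.34, n = 12 cells, and 2.39 ± 3.37, n = 21) and Msn by 4.23 (8.20 ± 1.76 and 3.97 ± 3.79). Itga8 was lower, with a difference of -5.10 (1.40 ± 1.87 and 6.51 ± 4.30). These are 2 members higher and 1 lower, where the rule called 3.34% of all entered genes higher and 1.67% lower. The other 6 entered members were not called with all cells in. Of them Npnt differed by 1.58, Cdh11 by 1.67, Itgav by 1.68, Itga5 by 1.39, Itgb1 by 1.12 and Itgb5 by -1.82, all less than the SD over cells in at least 1 class. Itgb5 was called lower, with a difference of down to -2.19, without any 1 of cells 5, 8, 10, 11, 14, 17, 34 and 35. The median difference of the 9 was 1.58, against 0.09 over all entered genes.

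The Ibsp-high and Otos-high cells lay further apart. Cdh11 was higher in Ibsp-high cells by 7.61, Fn1 by 7.36, Msn by 6.55 and Npnt by 3.79, so 4 members were higher and 0 lower, where the rule called 4.39% of genes higher and 4.67% lower. The groups did not overlap in CPM for Fn1, as for 0.157% of genes in that direction, but only by a narrow margin. Ibsp-high cell 10 had 0.978 CPM (4 reads) and Otos-high cell 25 had 0.771 CPM (5 reads). Fn1 was present in neither cell, and in reads the groups overlapped. Itga8 differed by -2.89 and was not called, since 55.6% of the Otos-high cells reached 1 CPM. Itgb1 differed by 1.75 and was not called, but was called higher in Ibsp-high cells at a pseudocount of 0.1 (2.12) and without cell 8 (2.03).

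Against the same remaining cells, the Otos-high cells were lower for Cdh11 (-5.95), Itga8 (-2.21) and Npnt (-2.21), 3 members lower and 0 higher, beside 1.22% of genes lower and 3.29% higher. The Itga8 and Npnt calls did not hold under every setting. Both were lost at a pseudocount of 10, Itga8 also without any 1 of cells 23, 27, 29 and 32, and Npnt without any 1 of cells 15, 16, 17, 24, 26, 27, 32 and 38, without the 5 remaining cells with osteoblast markers, or at class limits lowered to 0.1 of their value. Without those 5 cells, or without any 1 of cells 5, 11 and 12, Npnt was also called higher in the Ibsp-high than in the remaining cells. These comparisons and the preceding ones share cells, so their values are set side by side and not counted as agreeing.

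The 4 C1qb-high cells were set against all 42 others. Msn was higher by 3.88 (8.57 ± 0.46, n = 4 cells, against 4.68 ± 3.84) and Itgb5 by 2.88, while Cdh11 (-5.73) and Npnt (-3.61) were lower. These 2 members higher and 2 lower stand beside 10.2% and 4.64% of genes, and the median difference over all genes was -0.47. The Npnt call was lost at class limits lowered to 0.1 of their value. C1qb-high and Otos-high cells did not overlap for Msn, as for 2.08% of genes in that direction, nor C1qb-high and Ibsp-high cells for Cdh11, as for 1.06%.

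The families of the members were followed in lists of related genes. Of 18 integrin alpha chains, 12 were present in at least 1 cell and 8 in at least 5, and 4 had no read in any cell. The alpha chain with the highest median over the 46 cells was Itga10, a collagen-binding chain of cartilage, which was present in 35 cells. It was present in 11 of 12 Ibsp-high cells (median 70.6 CPM), 6 of 9 Otos-high (28.1 CPM), 2 of 4 C1qb-high (7.82 CPM) and 16 of 21 remaining cells (63.7 CPM). Of 8 beta chains, 6 were present in at least 1 cell, and Itgb3, a further partner of alpha-v, was present in none. Between Ibsp-high and remaining cells 1 of 8 entered alpha chains was called, Itga8 (lower), and 0 of 3 entered beta chains. Over all entered genes the rule called 3.34% higher and 1.67% lower in this comparison, the background of every list count below.

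Other ligands and receptors of the matrix were described in the same way. Of 10 entered integrin ligands, Fn1 and Thbs1 (thrombospondin 1) were higher in Ibsp-high than in remaining cells, with Thbs1 at medians of 593 and 77.3 CPM (difference 3.59). Cyr61, a matrix protein bound by integrins, had the highest median of the ligands, 1031 CPM, and was present in all 12 Ibsp-high, all 9 Otos-high, 2 of 4 C1qb-high and 14 of 21 remaining cells. Among 8 other matrix receptors, the heparan sulfate proteoglycans Sdc3 (difference 4.47, medians 194 and 0.860 CPM) and Sdc4 (2.56, medians 201 and 5.95 CPM) were higher in Ibsp-high cells. Sdc2 was present in 10 of 12 Ibsp-high, 8 of 9 Otos-high and 18 of 21 remaining cells and in none of the 4 C1qb-high cells.

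Among 20 cadherins, 12 were present in at least 1 cell and 5 entered. Besides Cdh11, Cdh2 (N-cadherin) was present in 8 of 12 Ibsp-high cells with a median of 170 CPM, against 4 of 21 remaining cells, and was called higher by 4.23. Ctnnb1 (beta-catenin, which binds the cadherin tail) was higher by 2.701, with medians of 999 and 308 CPM, and was 1 of 4 entered catenins called. In the list of ezrin, radixin, moesin and their partners, Msn was the 1 of 6 called.

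Proteins that join integrins to actin were also followed. Of 17 entered focal adhesion genes, 4 were higher in Ibsp-high cells and 0 lower, beside 3.34% and 1.67% of all entered genes. They were Flna (filamin A, difference 3.91, medians 367 and 1.01 CPM), Zyx (zyxin, 2.34), Fermt2 (kindlin-2, 2.26) and Ilk (integrin-linked kinase, 2.01, medians 318 and 186 CPM). The median of the list was 0.40, against 0.09 over all genes. Of 10 entered laminin and basement membrane genes, Lama4 was called higher (3.62, present in 9 of 12 and 3 of 21 cells), while the list had a median of -0.48. Lamb2, with the highest median of that list, had medians of 328 and 218 CPM.

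**Figure D4:**
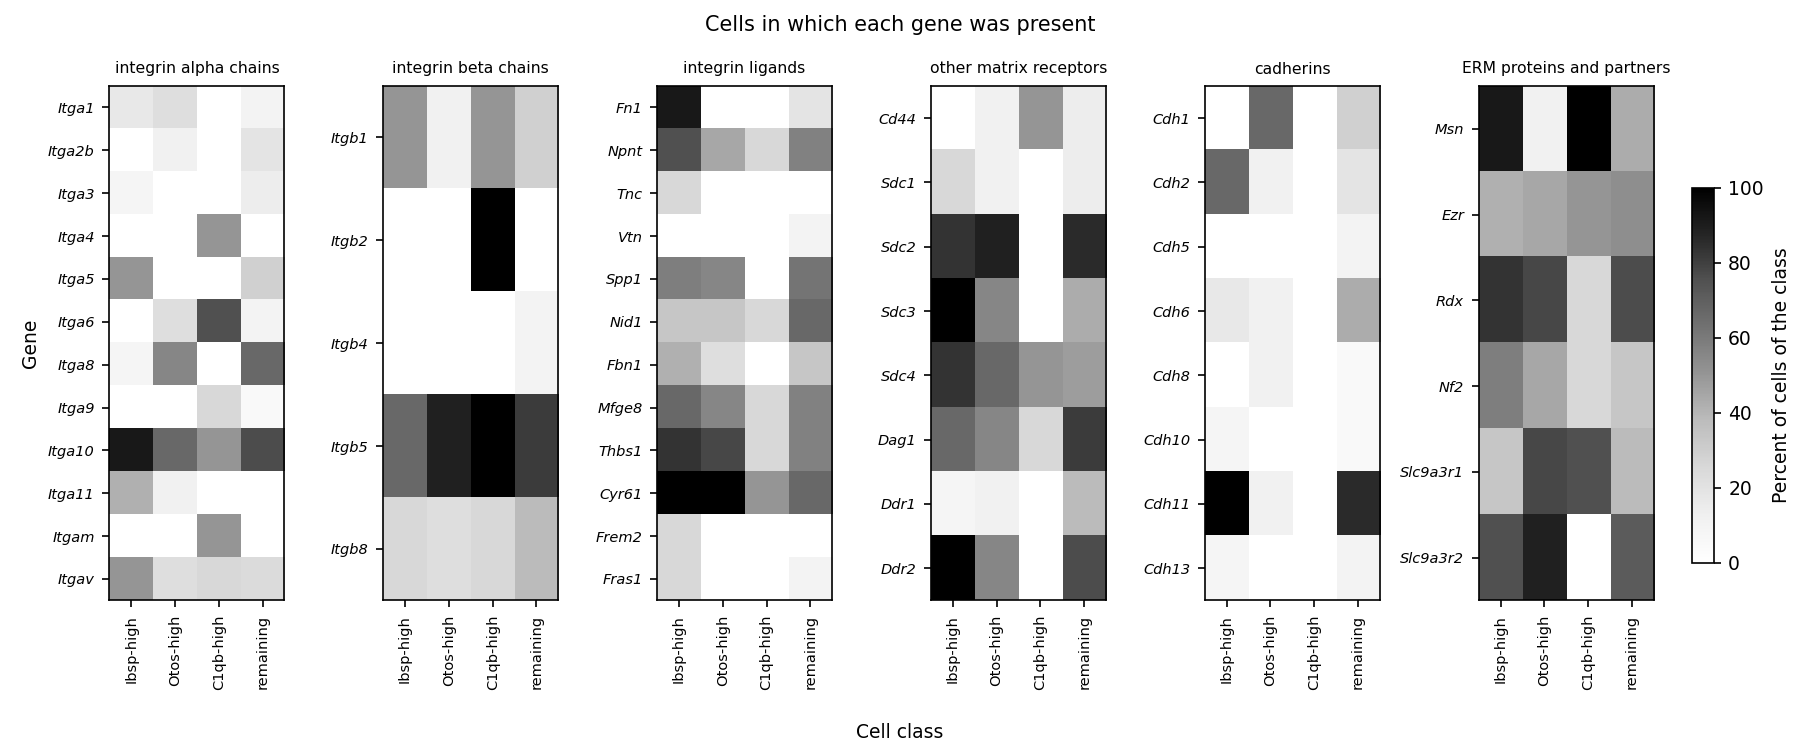
Percent of the cells of each class in which each gene of 6 lists was present (grey scale, 0 to 100), for genes present in at least 2 cells. Itga10 and Itgb5 are dark in most classes, Itga8 is darkest in the remaining cells (14 of 21), and Itgb2 is dark in the C1qb-high cells alone (4 of 4).

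The genes whose log2(CPM + 1) was most alike over the 46 cells differed from member to member. For Itga8 they were Moxd1 (r 0.70), Ogn (osteoglycin, 0.68) and Plpp3 (0.68). Plpp3 was present in all 20 Itga8 cells but in 38 cells in all, and Moxd1 in 14 of the 20 and 15 in all. For Fn1 they were Ptgis (prostacyclin synthase, 0.86), Ifitm5 (a gene of bone-forming osteoblasts, 0.76) and Wif1 (a secreted Wnt inhibitor, 0.75). For Cdh11 they were Wisp1 (0.78), Lifr (0.69) and Dpysl3 (0.69), and for Msn they were Mef2c (0.72), Cast (0.62) and Myo5a (0.59). For Npnt no r passed 0.60, which was that of Ildr2, followed by Kalrn (0.59) and Lrrc42 (0.56). For Tnc, Klhl33 (0.74), Synj2 (0.72) and Lig1 (0.72) rest on its 3 cells. These are correlations over cells of 1 sample that share class and depth, and are given as a description.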

How the data were processed

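Values are CPM per gene and cell, as deposited by the authors in 1 table. The reads had been processed with bcl2fastq 2 and STAR 2.7.3a, with the builds named GRCm38 and mm10, per the submitters' processing notes. The program for counting, its annotation and its strand setting were not given in the sources used here. Tissue was dissociated with papain, each fluorescent cell was taken up with a suction pipette, and the SMART-Seq v4 and ThruPLEX kits were used, per the labels' protocols. The deposited CPM were whole multiples of 1 read for 100% of values (tolerance 0.01 read), and listed genes held 86.4% to 93.5% of the 1000000 of each cell. No molecular identifiers were used, so reads are not independent molecules, and shares of cells (exact Clopper-Pearson, 95%) cover counting error only and describe picked cells, not the tissue.

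The 46 cells form 1 labelled group with no animal named, so no test was made, and a count test on the recovered reads could not be run without another sample. Presence, the size rule (pseudocount 1) and the classes are as defined in the text. The size rule alone was also run on simulated reads, for Ibsp-high against remaining cells, with the classes kept from the data. That simulation did not include the split into high and near-0 cells, and presence and the classes were not simulated. All 186 symbols of the lists matched. The members, lists, class limits and rules were chosen with earlier results of these data known. Named genes are the 10 members, up to 4 genes per list with the largest difference past the size rule between Ibsp-high and remaining cells, the gene of each list with the highest median, and the 3 genes most correlated with each of 6 members (leaving out Gm, Rik and LOC symbols, dates, mitochondrial and ribosomal protein genes). Genes that share sequence with a member were named or counted after a search of GENCODE M21 transcripts. Python 3.11.15, pandas 2.3.3, numpy 2.4.6, scipy 1.17.1 and matplotlib 3.10.9 were used.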

Additional observations from a re-analysis of the deposited data

How the results depend on the processing

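The cells form 1 sample, so no alternative bears on variation between animals. No paired analysis was possible because the labels give 1 group. Of 310 member differences recomputed under other pseudocounts, scaling, filters and class limits, without the 5 remaining cells with osteoblast markers and with each cell left out in turn, none that passed the size rule changed direction, while 4 values of 3 uncalled differences did: Itgav in Otos-high against remaining cells (0.04, main -0.37, lower class limits) and in C1qb-high against other cells (1.25, lower class limits, and 0.25, a cell left out, main -0.35), and Itgb1 in C1qb-high against other cells (-0.007, a cell left out, main 0.59). Another 4 values moved by more than the pooled SD over cells (Ibsp-high against Otos-high, all through the pseudocount). Of 43 recomputed counts of members and of Npnt with Itga8, 8 fell outside the exact 95% interval of the count they replaced, and others changed within it, such as Itga8 (20 to 26 cells), Fn1 (15 to 21) and Msn (25 to 31) at 1 CPM. Thinning every cell to 3500000 reads left out 4 cells (5, 8, 35 and 36) and left the 5 full ligand and receptor counts as they were.

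At a pseudocount of 10 fewer genes passed the size rule: 139 higher and 101 lower between Ibsp-high and remaining cells (main 382 and 191), 127 and 61 between Otos-high and remaining cells (377 and 140), 239 and 278 between Ibsp-high and Otos-high cells (502 and 535), and 531 and 323 between C1qb-high and other cells (1173 and 531). At a pseudocount of 0.1 the higher genes numbered 588 for Ibsp-high and 569 for Otos-high against remaining cells. Leaving out each cell in turn gave 284 to 408 higher and 183 to 224 lower, 361 to 498 and 137 to 178, 384 to 565 and 498 to 666, and 791 to 1194 and 531 to 611, in the same order. With presence at 1 CPM, Npnt with Itga8 and Itgb1 shared 15 cells (main 3), Fn1 with Itga5 and Itgb1 10 (3), and Fn1 with Itga8 and Itgb1 6 (0). At 100 CPM, Npnt with Itga8 and Itgb1, Fn1 with Itga5 and Itgb1, and Fn1 with Itgav and Itgb1 (main 4) shared 0. Itgb1 itself was present in 38 cells at 1 CPM and in 1 at 100 CPM, against 15.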

Other observations

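The C1qb-high cells held some of the integrin chains of leukocytes, which are named here after their values were seen. Itgb2, the beta chain shared by leukocyte integrins, was present in all 4 of these cells, between 112 and 151 CPM, and did not pass 0.231 CPM in any other cell. Fermt3 (kindlin-3, the integrin activator of blood cells) was present in all 4, from 101 to 625.5 CPM, and in no other cell. Its relative Fermt2 was present in none of the 4, with a highest value of 0.194 CPM, but in 11 of 12 Ibsp-high cells. Itga4 and Itgam (the alpha chain of complement receptor 3) were present in 2 of the 4 cells each and in no other cell. Itga6 was present in 3 of the 4, and also in 2 Otos-high and 2 remaining cells, with its highest value of 727 CPM in remaining cell 41. Other leukocyte chains were not found: Itgal, Itgax and Itgae had no read in any cell, and Itgad and Itgb7 were present in none. The class was set by C1qb, a macrophage gene, and macrophage markers were high in the same 4 cells. As background, the size rule called 10.2% of entered genes higher in the C1qb-high cells than in all others. Fermt3 was among them (difference 7.83), while Itgb2 did not enter the rule. C1qb-high and Otos-high cells did not overlap for 2.08% of entered genes in that direction. The share not overlapping with all other cells was not determined, so the Itgb2 and Fermt3 values are a description.

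The Otos-high cells held Cdh1 (E-cadherin) in 6 of 9 cells, with a median of 50.4 CPM, while the 12 Ibsp-high cells did not pass 1.16 CPM. It was also present in 6 of 21 remaining cells. The size rule did not call Cdh1 between Ibsp-high and Otos-high cells (difference -4.14) or between Otos-high and remaining cells (1.81). It called 4.67% of entered genes lower in the former comparison and 3.29% higher in the latter. Cdh1 was not picked by the rule for named genes, so its values are a description. Of the other otic epithelium markers, Krt18 was present in 1 Ibsp-high, 1 Otos-high and 1 remaining cell, and Epcam and Krt8 were at 0 in every cell.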
